A study of Mus musculus with 40 samples.

Results

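The comparison was between the 20 µg and the 5 µg dose of Kal-1, an ethano-botanical formulation given with a high-fat diet, in mouse samples labelled as subcutaneous stromal vascular cells (SVCs). SVCs are the cells of fat tissue other than the fat cells themselves, and they include macrophages, preadipocytes, the cells of blood vessels and lymphocytes. The members were chosen by their labels alone, as the arrays of both doses at weeks 3, 6, 9, 12 and 15 of the diet, and these were 10 of the 40 arrays of the series, 5 per dose. Each dose had 1 array at each week, so the arrays formed 5 pairs by week.

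All mice were C57BL/6J, weaned at 3 to 4 weeks of age. The group called HF5 received 5 µg of Kal-1 with a high-fat, high-sucrose diet in which fat gave 60% of calories, and HF20 received 20 µg with the same diet. By the labels the groups therefore shared the diet and the formulation and differed in dose. A high-fat diet without the formulation (HFC), the same diet with 75 µg (HF75) and a low-fat diet with 10% of calories from fat (LFC) supplied 15 other arrays at these weeks, whose levels are given beside those of HF5 and HF20. Each diet group held 30 animals, of which 5 were killed at a time point. The labels do not say how many mice or which sex each array stands for, and the p-values measure only the spread between these arrays.

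Each array carried 43803 spots other than controls, with 40628 probes and 29411 genes, and 21990 genes were tested, those that 3 or more arrays of one dose showed well above background. Levels are log2 intensities with each array's 75th percentile set to 0, and a difference is the HF20 level minus the HF5 level of the same week. The 75th percentile of intensity was 648, 761, 1448, 558 and 1123 on the HF5 arrays and 749, 1793, 1441, 1027 and 1126 on the HF20 arrays, in order of week. The share of probes well above background was 58.5%, 69.5%, 70.2%, 71.4% and 72.4% on HF5 and 70.4%, 68.6%, 87.2%, 75.4% and 74.5% on HF20. HF20 had the brighter array in 4 of 5 pairs by either measure. The mean log2 difference of the 75th percentile was 0.465 ± 0.564 (SD, n = 5 pairs; exact two-sided sign-flip permutation test, p = 0.188), and 5 pairs cannot give a p under 0.0625 in this test.

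The levels of cell type genes were not alike on all arrays. Genes of fat cells, such as Adipoq (adiponectin), Plin1 (perilipin, the coat protein of the lipid droplet) and Adrb3 (the fat cell's beta-adrenergic receptor), are not marker genes of SVCs. The mean level of the 17 adipocyte genes was 0.06, 0.74, 4.68, 0.78 and -0.16 on the HF5 arrays of weeks 3 to 15, and 1.29, 0.32, 4.65, 5.06 and 4.87 on the HF20 arrays. HF5 at week 9 and HF20 at weeks 9, 12 and 15 therefore stood apart from the other 6 arrays, with 12 of the 17 genes at the scanner's maximum on at least 1 of the 10 arrays. Among the other diets the same list stood at 4.54 on HFC at week 9, at 4.75 and 4.61 on LFC at weeks 9 and 12, and between -0.28 and 2.21 on 11 others. LFC at week 3 is left out of this range, since 17.2% of its probes were well above background and its levels cannot be compared with the rest. The titles of both week 9 arrays carry letters that the labels do not explain. All 10 arrays are labelled as SVCs, and whether the 4 arrays with high adipocyte genes held fat cells or whole fat tissue was not tested, which bears on every difference at weeks 12 and 15. Genes of macrophages were present on all 10 arrays: the 15 macrophage genes, among them Adgre1 (a surface receptor of mature macrophages) and the complement genes C1qa, C1qb and C1qc, were well above background on every one, with list means from 0.77 to 2.01 on HF5 and 0.83 to 1.62 on HF20.

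A second array stood apart. On HF5 at week 3, which had the fewest probes well above background, the 14 endothelial genes had a mean of -1.68 against 2.25 to 3.65 on the other HF5 arrays, and the 10 pericyte and smooth muscle genes -1.57 against 2.77 to 4.11. Collagen genes stood at -0.20 there against 2.52 to 3.21. At weeks 12 and 15 the dose difference and the difference in adipocyte genes fall on the same arrays, and at week 3 the dose difference and the low vascular genes do, so that dose and array cannot be told apart at these weeks. The count of genes at an unadjusted p under 0.05 and the medians of many lists are therefore also given without some of these weeks, and the other counts are not. In bulk RNA, fewer cells of a type and less RNA per cell cannot be told apart either.

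**Figure D1:**
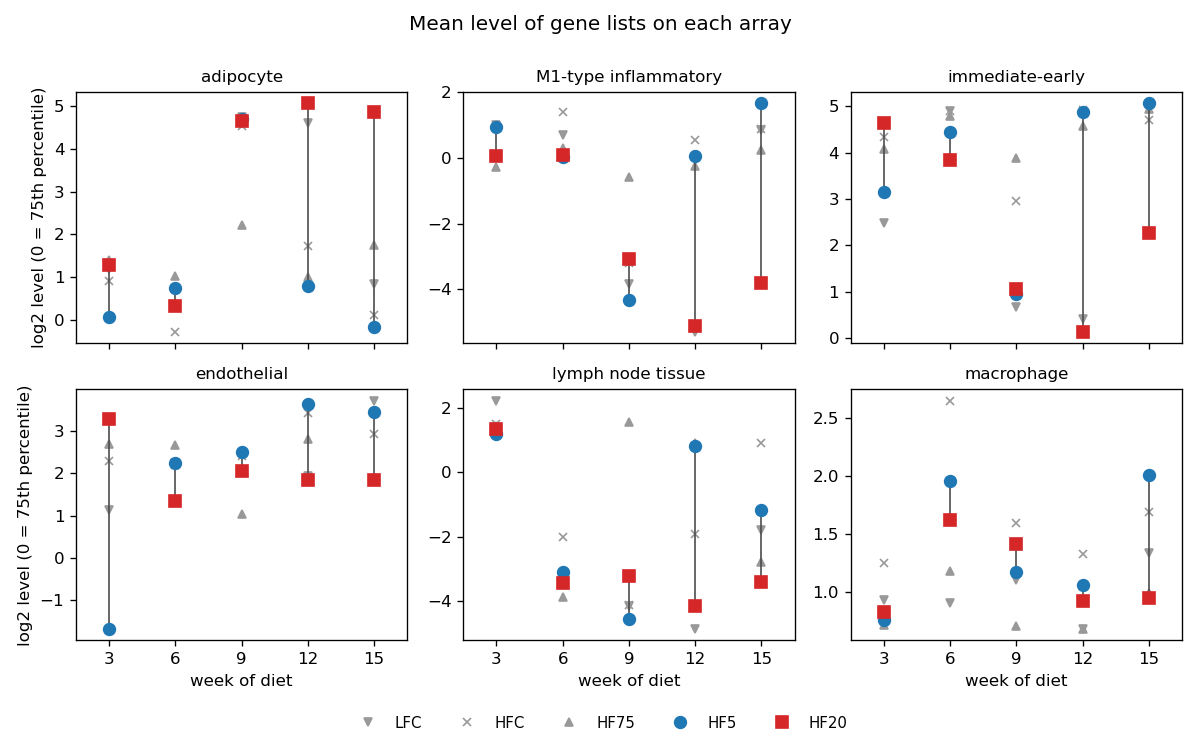
Mean log2 level of 6 gene lists on each array (vertical axis, 0 = the array's 75th percentile) against week of diet (horizontal axis), with HF5 as circles, HF20 as squares, a line joining each pair, and HFC, HF75 and LFC in grey, where LFC at week 3 was too dim to compare. Adipocyte genes stood at 4.68 on HF5 at week 9 and at 4.65, 5.06 and 4.87 on HF20 at weeks 9, 12 and 15, where the M1-type genes were at -4.32, -3.08, -5.12 and -3.80.

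Over the 5 pairs, Bmp3, Wif1 and Gsta4 were among the genes of smallest p that were higher on HF20 in every week. Bmp3, a secreted protein of the bone morphogenetic protein family that opposes the other members' signalling, was higher by 1.90 ± 0.29 (moderated SE of the limma fit, n = 5 pairs). Wif1, a secreted inhibitor that binds Wnt proteins, was higher by 1.60 ± 0.28. Gsta4, a glutathione transferase that clears the aldehydes formed when lipids are oxidised, was higher by 2.46 ± 0.54. Among the genes of smallest p that were lower on HF20 in every week, Tnfsf14 (LIGHT, a cytokine of activated lymphocytes) differed by -1.69 ± 0.37, Ets1, a transcription factor of lymphocytes and endothelium, by -1.64 ± 0.39, and Retnlg, a resistin-like protein of neutrophils, by -2.56 ± 0.61. None of these passed the test across genes.

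limma, with week as a block and Benjamini-Hochberg adjustment over the 21990 genes, called 0 genes at an adjusted p under 0.05 (0% of those tested), and the smallest adjusted p was 0.670. At an unadjusted p under 0.05 the same fit gave 1284 genes (5.84%), 768 higher (3.49%) and 516 lower (2.35%) on HF20, and the methods' t-test gave 328 there and 0 after adjustment. The sign was the same in 5 of 5 pairs for 915 genes that were higher (4.16%) and 817 that were lower (3.72%). The unadjusted count was 336 without weeks 12 and 15, 3582 without weeks 3 and 9, 2554 without week 3 alone, 325 without week 12 and 315 without week 15. The balance of directions depended on the scaling, which also changed the set of genes. Of the 1284 genes 59.8% were higher on HF20, against 20.1% of 1226 genes with each array's median, which moved the median difference of all genes by -0.11, 35.3% of 1494 with quantile normalization, 52.2% of 1740 with normexp background correction and 66.6% of 1504 with no floor.

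The level of Bmp3 on the HF5 arrays was -5.94, -2.90, -0.95, -2.88 and -2.97 in order of week, and on the HF20 arrays -4.38, -1.44, 1.08, -0.95 and -0.42. The pairs differed by 1.55, 1.45, 2.02, 1.93 and 2.55, and the levels of the groups overlapped. Bmp3 was not well above background on HF5 at week 3, so that the difference of that week, and with it the mean, is a lower bound. Across the other diets its mean was -2.86 ± 1.69 (SD, n = 5) on HFC and -4.27 ± 1.15 on HF75, so that the level did not follow the order of the doses. Wif1 was at -5.94, -3.27, -6.05, -7.24 and -6.10 on HF5 and at -4.16, -1.89, -4.99, -5.33 and -4.20 on HF20. It was a dim gene throughout, not well above background on HF5 at weeks 3 and 12, so that these differences and the mean are lower bounds, and its highest level at either dose was at week 6.

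Only 3 genes were at least 2-fold higher on HF20 in 5 of 5 pairs, and 0 were 2-fold lower in all, of 18856 genes measured in every pair. With quantile normalization the balance turned, to 1 gene higher and 8 lower, and with normexp or with both arrays well above background 1 gene was higher and 0 lower. The 3 genes higher with the 75th percentile were Bmp3, Wif1 and Adora1, the adenosine A1 receptor that restrains lipolysis in fat cells, which was picked out after its values were seen. Adora1 differed by 1.40, 1.97, 1.09, 5.58 and 5.72 in order of week. Its difference was larger at weeks 12 and 15 than before, as for the adipocyte genes.

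The arrays read these genes through 60-base probes, and those of the leading genes are printed to show which part of a transcript was measured.
Bmp3: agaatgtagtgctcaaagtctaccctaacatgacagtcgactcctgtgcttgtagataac
Wif1: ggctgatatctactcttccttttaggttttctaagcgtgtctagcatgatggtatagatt
Tnfsf14: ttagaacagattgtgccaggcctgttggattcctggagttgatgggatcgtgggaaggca
Bmp3 lies on chromosome 5, Wif1 on chromosome 10 and Tnfsf14 on chromosome 17 in the annotation of the probes, and each of the 3 genes was read by 1 probe.

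Gsta4 was at -5.15, -1.11, -0.11, -2.54 and -2.31 on HF5 and at -3.12, 0.71, 0.63, 1.63 and 1.23 on HF20. It was higher on HF20 in each week, by 0.74 to 4.17. Gsta3, a related transferase, was higher by 2.63, but by 5.99 and 5.84 at weeks 12 and 15 and by -0.59 and 0.06 at weeks 6 and 9. The other genes of smallest p on the higher side included Cldn22 (a tight junction claudin), higher by 2.03 ± 0.45, and Ddn (dendrin), by 1.17 ± 0.29. Of the 12 genes of smallest p on this side, 10 were not well above background on HF5 at week 3, so that their differences of that week and their means are not exact.

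Tnfsf14 was at 0.83, -1.90, -1.45, -0.68 and -0.15 on HF5 and at -0.66, -2.41, -3.02, -3.10 and -2.60 on HF20, and was well above background on all 10 arrays. It was lower on HF20 in each week, by least at week 6, where the difference was -0.51. Retnlg covered a wide range at both doses, from -3.53 to 3.40 on HF5 and from -4.70 to -1.35 on HF20, with its largest difference, -4.75, at week 3. Il4ra, the receptor chain for the cytokines that drive alternative activation of macrophages, differed by -1.72 ± 0.46 and was highest on HF5 at week 3 (5.08). Ifitm1, an interferon-induced membrane protein, differed by -1.90 ± 0.51.

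Other genes of smallest p on the lower side depended on the probe to different degrees. The natural killer receptor Klrc2 differed by -1.68, but its other probe gave -0.39 and was higher on HF20 in 3 of 5 pairs. The 3 probes of Ets1 gave -1.64, -2.06 and -1.65, the last of them higher on HF20 in 1 pair. Cyp4f18, a cytochrome that inactivates leukotriene B of neutrophils, differed by -1.41 ± 0.34. All 24 leading genes had a limma adjusted p of 0.670 or more after Benjamini-Hochberg adjustment.

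**Figure D2:**
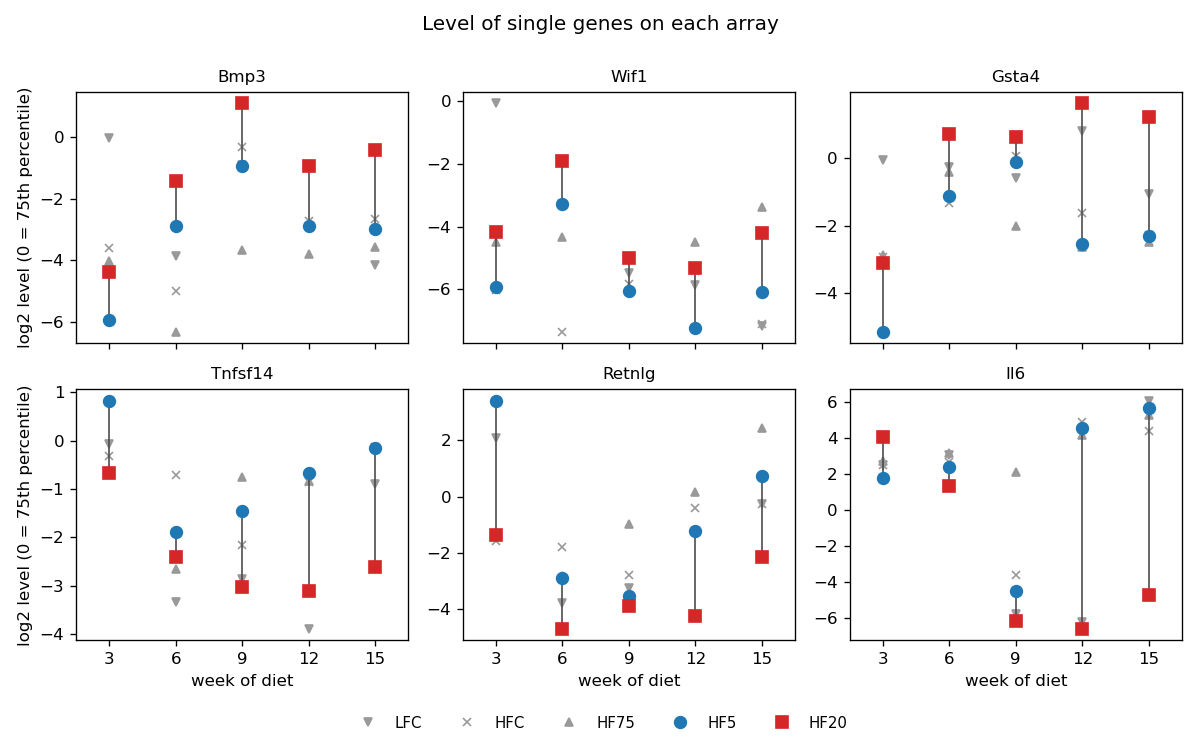
Log2 level of Bmp3, Wif1, Gsta4, Tnfsf14, Retnlg and Il6 on each array (vertical axis, 0 = the array's 75th percentile) against week of diet (horizontal axis), HF5 as circles, HF20 as squares, pairs joined by a line, other diets in grey. Bmp3 was higher on HF20 in 5 of 5 pairs, by 1.45 at week 6 and 2.55 at week 15, and Il6 was lower by more than in any other pair at weeks 12 and 15, where its differences were -11.13 and -10.39.

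The share of genes at least 2-fold apart, both directions together, was 38.7% at week 3, 47.8% at week 12 and 49.2% at week 15, but the order turned with normexp, at 37.2%, 33.5% and 28.5%. At week 6, 8.45% of the 21024 genes measured were at least 2-fold higher on HF20 and 9.69% at least 2-fold lower, and at week 3 the shares were 19.7% and 19%. Week 9 was lopsided, with 28.4% higher and 2.38% lower, on the pair in which HF20 had 87.2% of its probes well above background. Both directions together made 30.7% at week 9 and 18.1% at week 6, but 6.61% and 11.7% with normexp, and week 9 had 13.6% among genes that both arrays showed well above background. At week 12 the shares were 23.3% and 24.4%, and at week 15 27.8% and 21.3%. With 1 array per dose and week these shares have no test.

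**Figure D3:**
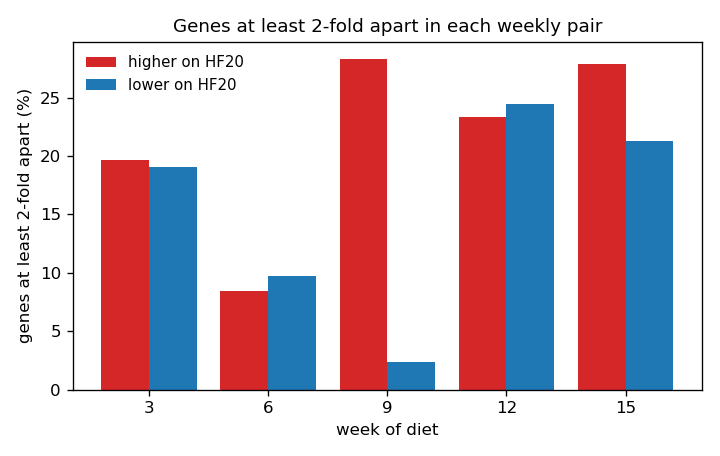
Share of genes measured (vertical axis, percent) at least 2-fold higher (red) or lower (blue) on HF20 than on HF5 at each week of diet (horizontal axis), 1 pair of arrays per week. The bars stood at 8.45% higher and 9.69% lower at week 6, and at 28.4% higher and 2.38% lower at week 9.

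The genes of largest difference were not the same from week to week. At week 3 the largest differences were genes of smooth muscle, with Cnn1 (calponin), Myh11 (smooth muscle myosin) and Mylk (myosin light chain kinase) higher on HF20 by 8.12, 6.88 and 6.83, and Fpr1, the formyl peptide receptor of neutrophils, lower with a difference of -5.57. The HF5 array of that week was the one low in vascular genes, and Cnn1 stood at -3.75 on it and between 1.65 and 6.12 on the other HF5 arrays. At week 6 the kidney water channel Aqp2 was higher by 5.19, while Cst11, Spag11b and Cstdc2, genes of the epididymis, differed by -8.89, -8.12 and -7.62. Cst11 stood at 5.44 on HF5 at week 6, at -0.55 on HF5 at week 15 and at -4.29 or below on the other HF5 arrays, so that this signal was highest on 1 array.

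At week 9 the genes of largest difference were H1f6 (a testis linker histone) and Olfr433 (an odorant receptor), higher by 5.28 and 5.03, and the stress chaperone Hspa1a, lower with a difference of -4.11. Hspa1a was at 4.63, 5.41, 3.66, 6.53 and 6.01 on HF5 and at 5.65, 5.03, -0.44, -0.53 and -0.62 on HF20, so that HF20 was low at weeks 9, 12 and 15 while HF5 was high at every week, also on the week 9 array with high adipocyte genes. Its spots were saturated on HF5 at week 15 and HF20 at week 6, where the levels are lower bounds. Of the 10 heat shock genes, Hsph1 and Dnajb1, partners of that chaperone, differed by -2.35 and -1.36 at week 9 and by -1.23 ± 0.45 and -0.96 ± 0.33 over the 5 pairs.

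For weeks 12 and 15 the genes of largest difference are named as single genes, with no count or test of a group. Mlxipl (ChREBP, the glucose-sensing factor that turns on lipogenesis), Pnpla3 (a lipid droplet hydrolase) and Tmem45b were higher by 8.50, 8.13 and 8.07 at week 12, and Slc7a10 (an amino acid transporter of white fat cells), Ces1f (a carboxylesterase) and Gys2 (glycogen synthase) by 9.62, 9.55 and 9.39 at week 15. Il6 differed by -11.13 and -10.39 at these weeks, the keratin gene Krt2 by -10.67 at week 12, and Acod1 (the itaconate-producing enzyme of activated macrophages) and Sele (E-selectin of activated endothelium) by -8.52 and -8.44 at week 15. Across 21941 genes the differences of weeks 12 and 15 had a Pearson correlation of 0.707, against values from -0.19 to 0.11 for the other 9 pairs of weeks. This is a description across genes, which are not independent replicates, and both weeks set an HF20 array with high adipocyte genes against an HF5 array without them.

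The list of adipocyte genes was higher on HF20 at weeks 3, 12 and 15 and lower at week 6. Week 9 cannot be read in this way, since both of its arrays were among the 4 with high adipocyte genes and 12 of the 17 genes reached the scanner's maximum on an array. Its median difference was 0.98, -0.53, 0.00, 3.98 and 4.73 in order of week, and 1.96 ± 2.38 over the pairs (SD, n = 5), against 0.08 for all genes tested. Of its 17 genes 16 had a positive mean difference, 4 had an unadjusted p under 0.05 on the higher side (3.49% of all genes did) and 4 were higher in 5 of 5 pairs (4.16% of all genes), and none had an adjusted p under 0.05. Among the 16 was Acvr1c, which was well above background on 2 HF5 and 5 HF20 arrays and entered the test only through HF20. The median was 1.92 over the 16 genes well above background on at least 3 arrays of each dose. A gene saturated on both week 9 arrays, as Adrb3 and Pnpla2 were, has no measured sign at that week, so that the count over 5 pairs is not exact. Without weeks 12 and 15 the median was 0.09. What the adipocyte genes of these arrays contributed to the other results was not tested.

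Lep, the satiety hormone leptin, was one of the 4 and was never at the scanner's maximum. It stood at -4.09, -3.73, 2.83, -3.27 and -5.32 on HF5 and at -3.11, -2.29, 3.57, 3.78 and 2.31 on HF20, a difference of 3.57 ± 1.21. HF20 was higher in each week, by 0.74 to 1.43 up to week 9 and by 7.05 and 7.63 at weeks 12 and 15. The other 3 were Adrb3, Slc2a4 (the insulin-responsive glucose transporter GLUT4) and Pnpla2 (the triglyceride lipase ATGL), at 3.62 ± 1.36, 2.31 ± 0.71 and 1.26 ± 0.53. Adrb3 and Pnpla2 were saturated on the 4 arrays with high adipocyte genes. Their differences at weeks 12 and 15 are therefore lower bounds, and those of week 9 are not measured. Fabp4, the fatty acid binding protein of fat cells and macrophages, was saturated on 9 of 10 arrays and gives no usable difference.

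Lists of fat storage and fat burning were higher on HF20 at weeks 12 and 15 as well. De novo lipogenesis had a median difference of 1.36, and of 1.07 over the 11 genes well above background on at least 3 arrays of each dose (12 genes, 4 higher at an unadjusted p under 0.05, against 3.49% of all genes), with Mlxipl at the top (3.16 ± 1.32) and Thrsp (2.61 ± 0.92), a lipogenic nuclear protein. Lipid droplet and lipolysis genes had a median of 1.34 over 16 genes, fatty acid oxidation 0.91 over 14, and the respiratory chain 0.61 over 14, with medians of 3.49, 2.43 and 1.74 at week 12 and of 0.01, -0.19 and -0.00 at week 9. In these 3 lists 9, 4 and 7 genes were saturated on at least 1 array, and in the lipogenesis list 5 of 12 were. The medians of these lists are therefore not exact, and those of week 9 cannot be read as no difference. Without weeks 12 and 15 the medians were 0.25 for lipogenesis, 0.13 for the lipid droplet, 0.14 for oxidation and -0.17 for the respiratory chain. Ppara, the nuclear receptor that turns on fat oxidation, was higher by 1.75 ± 0.62, and Cat, the peroxisomal catalase, by 1.87 ± 0.74 and in 5 of 5 pairs. The median was 1.16 for brown and beige fat, 0.90 for adipokines, 0.54 for fatty acid uptake and 0.54 for cholesterol synthesis, where Hmgcs1 was higher by 1.17 ± 0.43, and these 4 medians were 0.27, 0.46, 0.26 and 0.40 without weeks 12 and 15. The median of fatty acid uptake was 0.12 without week 3 and 1.14 without week 6. In the adipokine and the fatty acid uptake list 5 of 11 genes each were saturated on at least 1 array, so that their medians are not exact either.

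Insulin signalling was split, with a median of 0.49 over 12 genes and 0.15 without weeks 12 and 15. Irs1, an insulin receptor substrate, was higher by 1.67 ± 0.63, while Irs2, its relative, was lower on HF20 in 5 of 5 pairs with a difference of -1.40 ± 0.48. Adipogenic regulators had a median of 0.42, which was -0.07 without week 3, and angiogenesis and hypoxia genes 0.08, which was -0.04 with median scaling and -0.06 without weeks 12 and 15, with Bnip3, a hypoxia-induced mitophagy receptor, higher in 5 of 5 pairs by 1.93 ± 0.70.

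Inflammatory genes were lower on HF20 at weeks 12 and 15. The 9 M1-type genes had median differences of -0.53, -0.10, 1.57, -5.26 and -6.06 in order of week and -2.23 ± 3.37 over the pairs (SD, n = 5), with 8 of 9 on the lower side, 1 at an unadjusted p under 0.05 (2.35% of all genes were lower there) and 0 lower in 5 of 5 pairs. Without weeks 12 and 15 the median was 0.23. Il6 (interleukin 6) was at 1.79, 2.41, -4.47, 4.54 and 5.66 on HF5 and at 4.08, 1.37, -6.13, -6.59 and -4.72 on HF20. It was low on the same 4 arrays on which the adipocyte genes were high. Il1b (interleukin 1 beta) was at 5.81, 2.05, -4.76, 1.98 and 4.58 on HF5 and at 2.52, 1.40, -3.03, -6.82 and -2.64 on HF20, and Tnf (tumour necrosis factor) differed by -2.42 ± 1.12. Among the other diets the list stood at -3.19 on HFC at week 9 and at -3.82 and -5.29 on LFC at weeks 9 and 12, the arrays with high adipocyte genes there.

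CXC chemokines, which draw neutrophils and lymphocytes, had a median difference of -0.99 over the 8 genes well above background on at least 3 arrays of each dose, a choice made after seeing the data. Over all 11 it was -2.23, and 0.57 without weeks 12 and 15. Cxcl3 and Cxcl5 were well above background on 3 HF5 arrays and on 0 HF20 arrays each, so that they entered the test only through HF5 and no size is given for them. Cxcr4, the receptor of Cxcl12, differed by -2.43 ± 0.92. CC chemokines had a median of -0.87 over 12 genes, with Ccl4 and Ccl3 at -3.68 ± 1.29 and -3.35 ± 1.35 and Ccl5 lower in 5 of 5 pairs at -1.54 ± 0.52, and the median of this list was -0.30 without weeks 12 and 15.

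Because Il6 and several Cxcl genes were lower together at weeks 12 and 15, their promoters were searched for 5 motifs on both strands. Of these genes, Cxcl2 and Cxcl3 were well above background on 4 and 3 HF5 arrays and on 2 and 0 HF20 arrays. Both entered the test only through HF5. The kappaB core, whose 10 letters are the capitals in the sequences with any base at the middle position, is a narrower form of the NF-kappaB consensus. It occurs in promoters of 300 bases for 126 of the 27025 genes that had one (0.466%). Among genes with a promoter it was found for 1 of 9 M1-type genes, 3 of 8 CXC chemokines, 0 of 17 immediate-early genes and 0 of 12 adipocyte genes. This motif and these promoters were chosen for printing after the matches were seen, and a match describes letters, not binding. The search was prompted by the differences themselves, so that the counts lend them no support. The consensus itself occurs for 6.55% of these genes, and in the same 4 lists for 2, 4, 4 and 3 genes, so that it was no rarer among adipocyte genes, which were higher at these weeks, than among M1-type genes. TGANTCA occurs for 8.97% of genes with a promoter and in 3, 2, 0 and 1 genes of the lists, TGACGTCA for 2.03% and in 0, 0, 2 and 0, and the CArG box for 1.81% and in 0, 0, 2 and 0. The promoters follow from 5′ to 3′ on the forward strand in build GRCm38.p6 from RefSeq, with the motif in capitals, at chr5:30012864-30013163 for Il6, chr5:90890995-90891294 for Cxcl1, chr5:90903649-90903948 for Cxcl2 and chr5:90785851-90786150 for Cxcl3.
Il6: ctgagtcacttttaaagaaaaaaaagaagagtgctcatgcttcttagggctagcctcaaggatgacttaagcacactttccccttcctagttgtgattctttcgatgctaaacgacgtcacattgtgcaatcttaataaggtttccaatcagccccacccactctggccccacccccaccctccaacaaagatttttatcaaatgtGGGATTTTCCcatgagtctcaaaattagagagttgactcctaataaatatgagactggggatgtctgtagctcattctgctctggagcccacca
Cxcl1: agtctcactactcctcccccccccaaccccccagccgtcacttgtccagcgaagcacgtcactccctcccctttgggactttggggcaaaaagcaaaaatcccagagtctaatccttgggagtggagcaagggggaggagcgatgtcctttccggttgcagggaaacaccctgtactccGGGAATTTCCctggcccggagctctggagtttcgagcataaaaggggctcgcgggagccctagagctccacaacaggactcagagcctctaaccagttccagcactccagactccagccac
Cxcl2: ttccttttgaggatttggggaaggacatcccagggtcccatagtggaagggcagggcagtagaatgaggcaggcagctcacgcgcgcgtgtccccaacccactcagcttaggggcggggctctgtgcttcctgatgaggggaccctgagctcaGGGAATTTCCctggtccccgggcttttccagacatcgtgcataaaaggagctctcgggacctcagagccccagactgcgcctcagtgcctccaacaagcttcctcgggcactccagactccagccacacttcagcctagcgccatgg
Cxcl3: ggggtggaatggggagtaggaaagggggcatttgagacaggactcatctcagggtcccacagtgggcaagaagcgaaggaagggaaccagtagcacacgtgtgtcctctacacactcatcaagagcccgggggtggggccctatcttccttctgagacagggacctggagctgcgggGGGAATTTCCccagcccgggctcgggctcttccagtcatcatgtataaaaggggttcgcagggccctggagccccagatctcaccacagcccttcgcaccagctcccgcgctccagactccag
The capitals begin at base 207 of the Il6 promoter, 180 of Cxcl1, 154 of Cxcl2 and 178 of Cxcl3.

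Immediate-early genes, which respond within minutes to stimulation or to the handling of tissue, were lower on HF20 at weeks 12 and 15, and higher at week 3, where 18 of 20 were higher. Their mean level was 3.15, 4.45, 0.96, 4.87 and 5.06 on HF5 and 4.64, 3.83, 1.07, 0.14 and 2.27 on HF20. The median difference of the 20 genes was -1.24, with 19 on the lower side, and 0.15 without weeks 12 and 15. Of the 20 genes 8 were saturated on at least 1 array, so that these levels, medians and counts are not exact. Fos, a subunit of the AP-1 factor, stood at 2.14, 4.89, -2.44, 4.61 and 5.58 on HF5 and at 5.01, 4.47, -1.53, -4.96 and 2.89 on HF20. It was lowest on HF20 at week 12 and again low on both week 9 arrays. Nr4a1, a nuclear receptor of this class, differed by -2.23 ± 0.94, with saturated spots on 4 HF5 and 2 HF20 arrays. A pair saturated on both arrays has no measured sign, so that this mean is not exact and no count of pairs is given.

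Genes that define macrophages were higher on HF20 in some weeks and lower in others. The 15 macrophage genes had a median difference of -0.03 ± 0.57 (SD, n = 5 pairs), and 7 were on the higher and 8 on the lower side. The weekly medians were 0.34, -0.51, 0.34, 0.25 and -0.90, and at week 15 3 of 15 genes were higher. Adgre1 was at 1.33, 2.27, 2.29, 1.35 and 1.93 on HF5 and at 1.02, 2.45, 1.87, 1.71 and 2.16 on HF20, a difference of 0.01 ± 0.28. Its levels overlapped, and no array stood apart. The largest difference in the list was that of Cd14, the co-receptor for bacterial lipopolysaccharide, at 4.47, 3.71, 0.62, 2.74 and 4.69 on HF5 and 1.78, 2.57, 0.53, 0.44 and 0.72 on HF20. It was lower on HF20 in 5 of 5 pairs, with a difference of -2.04 ± 0.57. Fcgr1, an antibody receptor, the integrin gene Itgam and the protease gene Ctss differed by -0.79, -0.71 and -0.69. Other members went the other way: Mertk had a mean level of -0.83 on HF5 and -0.28 on HF20, and Cd163 of 1.40 and 1.94. Outside this list, Tlr2, which works with Cd14, differed by -1.32 ± 0.50.

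Genes of macrophage states went both ways. The M2-type list had a median of -0.58 over 10 genes, in which Mrc1 (the mannose receptor) differed by 0.15 ± 0.29 and Chil3 (a chitinase-like secreted protein) by -2.05 ± 0.80. Lipid-associated macrophage genes had a median of -0.43, MHC class II genes -0.63, Toll-like receptor genes -0.14, complement genes 0.17 and lysosome genes 0.12. Without weeks 12 and 15 the medians were -0.05 for M2-type, 0.34 for lipid-associated, -0.29 for MHC class II and -0.02 for lysosome genes, and the complement median was -0.29 without week 3. Interferon-stimulated genes had a median of -0.40, and 0.11 without weeks 12 and 15, with Rsad2 (viperin) at -1.70 ± 0.58.

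Lymphocyte genes were lower on HF20 at week 12, and most of their lists were higher at week 9. The T cell list had a median of -1.53 over 11 genes, with weekly values of -1.74, -0.57, 0.11, -4.73 and -0.71 and -0.71 without weeks 12 and 15. Cd2 and Lck, genes of T cell adhesion and receptor signalling, were lower in 5 of 5 pairs at -1.64 ± 0.58 and -1.54 ± 0.68. These were 2 of the 11 genes, against 3.72% of all genes. Another 2 of the 11 were on the higher side. Cd3e had a mean level of -3.64 on HF5 and -3.42 on HF20, and Cd4 of -4.80 and -4.50. B cell genes had a median of -0.97, natural killer and cytotoxic genes -1.03 and lymph node genes -1.30, with medians of 1.88, 1.03 and 1.20 at week 9 and of 0.45, 0.13 and 0.45 without weeks 12 and 15. At week 9 these lists were dim on HF5, with mean levels of -5.75, -3.61 and -4.55. Of all genes measured at that week, 28.4% were at least 2-fold higher on HF20 and 2.38% lower. The week 9 medians therefore cannot be read as particular to lymphocyte genes. The mean level of the lymph node list was 1.18, -3.09, -4.55, 0.81 and -1.19 on HF5 and 1.35, -3.44, -3.23, -4.16 and -3.41 on HF20. Glycam1, a ligand made by lymph node venules, was well above background on 3 HF5 and 2 HF20 arrays. It entered the test only through HF5, and no size is given for it. The mean levels of the lymph node list were high on both week 3 arrays and on HF5 at week 12. Without week 12 the median of the list was -0.17 and that of the B cell list 0.10.

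Among the other blood cells, neutrophil genes had a median of -0.81. Mast cell genes had a median of -0.20, but Hdc, which makes histamine, differed by -2.68 ± 0.83. The median was -0.68 for plasma cells, -0.30 for dendritic cells, 0.22 for erythroid genes and -0.29 for the cell cycle. Without weeks 12 and 15 it was -0.25 for neutrophils, -0.79 for mast cells, 0.22 for plasma cells, -0.01 for dendritic cells, -0.61 for erythroid genes and 0.11 for the cell cycle, and without week 9 it was -1.94 for neutrophils and 0.03 for mast cells.

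Endothelial, pericyte and Schwann cell genes were higher on HF20 at week 3 and lower at weeks 12 and 15, and collagen genes were higher at weeks 3 and 12 and lower at week 15. The endothelial list had median differences of 5.02, -1.01, -0.40, -1.75 and -1.68, and 0.06 ± 2.84 over the pairs (SD, n = 5). Kdr, a receptor for vascular endothelial growth factor, was at -2.01, 2.07, 3.11, 4.21 and 3.47 on HF5 and at 3.62, 1.23, 2.60, 2.46 and 3.00 on HF20. HF5 at week 3 was the one low array. Without week 3 the medians were -1.17 for endothelial, -0.87 for pericyte and smooth muscle, -1.19 for Schwann cell and nerve, -0.36 for collagen and -0.86 for matrix remodelling genes, against 0.06, 0.21, 0.22, 0.23 and -0.33 with it. Fibroblast and preadipocyte genes had a median of -0.07 and TGF-beta and fibrosis genes -0.62, where Tgfb1 was lower in 5 of 5 pairs at -0.91 ± 0.30. Without weeks 12 and 15 the medians were 0.46 for fibroblast, 0.47 for TGF-beta and 0.74 for matrix remodelling genes, and the TGF-beta list was at 1.74 at week 3. Without week 3 the fibroblast median was -0.50 and the TGF-beta median -0.91. The sign of the medians for endothelial and Schwann genes also depended on the scaling, at -0.05 with median scaling for the former and -0.55 with normexp for the latter, and those of pericyte and fibroblast genes turned too, at -0.01 with normexp and 0.07 with quantile normalization.

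Some lists of other tissues differed widely from array to array. Skeletal muscle genes had a median of 0.10, which was -0.02 with median scaling, and weekly medians of 0.41, 1.22, -1.13, -4.51 and 4.31, and the muscle creatine kinase Ckm went from -5.12 on HF20 at week 12 to 2.75 at week 15. Hair follicle and skin genes had a median of -1.01 that was 0.26 without week 15 and 0.10 without weeks 12 and 15, where at week 15 Krt10 stood at 2.58 on HF5 and at -4.72 on HF20. Epithelial genes had weekly medians of 0.51, -0.60, 1.35, -1.86 and -4.70. Mesothelial genes had a median of -0.24 over the pairs, which was 1.28 without weeks 12 and 15 and -1.29 without week 3. Y chromosome genes had a median of 0.16, which was -0.00 without weeks 12 and 15, and Ddx3y was well above background on all 10 arrays, between 0.47 and 1.94 on HF5 and between -0.15 and 1.19 on HF20.

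Of 16 clock genes, 2 were higher and 2 were lower on HF20 in every week, against 4.16% and 3.72% of all genes, and these 4 are described because of that pattern. Dbp, an output factor of the circadian clock, was at 1.59, 3.47, 4.94, 4.24 and 3.48 on HF5 and at 3.33, 4.15, 5.42, 5.80 and 5.30 on HF20, a difference of 1.26 ± 0.33. Its relative Tef was higher by 1.01 ± 0.34. Arntl (BMAL1, the core activator, which peaks when Dbp is low) differed by -1.20 ± 0.44, and Nfil3, which represses the genes that Dbp activates, by -1.64 ± 0.48. These 4 had the same sign in 5 of 5 pairs and an unadjusted p under 0.05 each (3.49% of all genes were higher and 2.35% lower there), the list median was 0.12 (-0.10 without week 6 and 0.36 without weeks 12 and 15), and none passed the adjusted test. Hlf, of the same family as Dbp, was higher by 0.94 ± 0.44 but in 3 of 5 pairs, and Per1 differed by -0.91 ± 0.40 in 4 of 5. The hour at which the mice were killed is not given in the sources used here.

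Heat shock genes had a median of -0.50, metallothionein and glucocorticoid response genes -0.88 (-0.43 and -0.12 without weeks 12 and 15), unfolded protein and amino acid stress genes 0.02 (-0.09 with median scaling and -0.25 without weeks 12 and 15), and antioxidant genes 0.38 (0.16 without weeks 12 and 15), in which Hmox1 (heme oxygenase) was lower in 5 of 5 pairs at -1.56 ± 0.45. The 16 cytosolic ribosomal protein genes all had a negative mean difference, with a median of -0.47, and 5 of them were lower in 5 of 5 pairs, against 3.72% of all genes. That median was -0.09 with quantile normalization, and 12 of the 16 were saturated on at least 1 array. Where both arrays of a pair are saturated, the scaling alone sets the difference, and the log2 75th percentile was higher on HF20 by 0.465 on average. The median and the counts of this list therefore cannot be read as a difference between the doses. The 11 housekeeping genes had a median of 0.23, and 0.04 without weeks 12 and 15, with Actb at -0.06 ± 0.38 and Gapdh, saturated on 2 HF20 arrays, at 0.11 ± 0.36.

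The difference between the doses was also fitted against week, which asks whether it grew or shrank over the diet. The genes of smallest p all had negative slopes: Ccl21c, a chemokine of lymphatic vessels and lymph nodes, went from 3.12 at week 3 to -6.25 at week 15, a slope of -0.79 ± 0.07 (SE) per week, with Slco2a1 (a prostaglandin transporter) at -0.57 and Tnc (tenascin, a matrix protein of remodelling tissue) at -0.64. Tnc was not well above background on HF5 at week 3, stood at 0.20 on HF5 at week 15 and stood between -4.58 and -2.44 on HF20. limma called 0 genes for a slope at an adjusted p under 0.05 (0% of those tested; smallest adjusted p 0.110 after Benjamini-Hochberg adjustment), and 5000 genes (22.7%) had an unadjusted p under 0.05, 2954 with a positive and 2046 with a negative slope. With normexp background correction 186 genes passed, 168 of them with a negative slope. The adipocyte genes of weeks 12 and 15 and the vascular genes of week 3 lie at the ends of this series, and their part in the slopes was not tested.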

How the data were processed

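The intensities deposited by the authors were background-subtracted and not yet scaled across arrays, per the file headers, which name Agilent Feature Extraction 10.5.1.1 where the labels name version 9.1. The arrays had 1 colour. Outlier spots were left out, spots of a probe were averaged, and log2 of the processed intensity was set against each array's 75th percentile. A value that was not well above background was replaced by its array's lowest value that was, where it lay under it. Each gene was read by its probe of highest mean level over the 10 arrays. Of the 21990 genes tested, 18872 were matched to RefSeq names (15647 by accession, 2556 by symbol and 669 by synonym), 3118 kept the array's name, 1073 were saturated on at least 1 array and 49 lacked a pair.

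limma 3.58.1 in R 4.3.3 (lmFit, eBayes) was fitted with week as a block, and to the 5 differences with week as a covariate. Every SE given for a gene is limma's moderated SE, whose variance is drawn toward that of all genes. It is not the SE of the gene's own 5 differences. Tables and plots were made with pandas 2.3.3, NumPy 2.4.6 and matplotlib 3.10.9 in Python 3.11.15. Weeks pair the arrays by time point only: the deviations of same-week arrays from their dose means correlated at 0.27, 0.68, 0.37, -0.32 and -0.22 across genes. In 4 pairs both arrays were scanned on the same day, and the 10 arrays had 6 scan days. The week 3 pair was scanned on different days. Both week 9 arrays lay on the same slide, which held for 1 pair only. The methods were tested on simulated data.

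In each direction the 12 genes of smallest p with the same sign in 5 of 5 pairs were chosen for naming, as too few passed the adjusted threshold, with 3 genes per direction at each week, 3 for the change with week, and the extreme members of 54 gene lists, 53 of which had a tested gene. Not all of the genes so chosen are reported here. Single members were also named where the text gives their counts, chosen after their values were seen. The members and lists were chosen with earlier results of these data known. Alternatives were other scalings, background correction, filters, thresholds, blocks and arrays left out. A deposited table of the authors' log2 fold changes was not used.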

Additional observations from a re-analysis of the deposited data

Results flagged for a closer look

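Within each dose, 1 array was farther from the other 4 than Dixon's gap rule allows in 14 of 114 groups of 5 values. Chance marks about 1 in 20 independent groups. These groups share their arrays, and many lists share genes, so that the count cannot be set against that rate. On HF5, week 3 held 6 of the 14. Its share of probes well above background stood at 58.5% (69.5% to 72.4% on the other arrays). Its mean levels were -1.68 for endothelial genes (2.25 to 3.65 on the others), -1.57 for pericyte and smooth muscle genes (2.77 to 4.11), -0.20 for collagen genes (2.52 to 3.21), -1.07 for adipogenic regulators (0.71 to 1.39) and 0.89 for complement genes (2.79 to 3.44).

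On HF5, week 9 was the highest array for adipocyte genes, at 4.68 against -0.16 to 0.78, for lipid droplet and lipolysis genes, at 4.18 against 0.32 to 0.96, and for housekeeping genes, at 1.93 against 1.63 to 1.71. It was the lowest for M1-type genes, at -4.32 against 0.01 to 1.65.

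On HF20, week 3 was the highest array for B cell genes, at 0.61 against -4.94 to -3.75, and for lymph node genes, at 1.35 against -4.16 to -3.23, and the lowest for antioxidant genes, at 0.87 against 2.07 to 2.37. Week 6 was the highest for mesothelial genes, at 0.83 against -4.27 to -3.38.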

How the results depend on the processing

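The count of genes that differed between the doses was 0 at a Benjamini-Hochberg adjusted p under 0.05 in limma and in all 22 alternatives, with the smallest adjusted p between 0.303 and 0.996, and 1284 at an unadjusted p under 0.05. That unadjusted count was 316 with no block for the weekly pairing, 2558 with the 4 high-fat groups in one fit, 328 with the methods' t-test, 3582 without weeks 3 and 9, 336 without weeks 12 and 15 and 315 to 2554 with 1 week left out at a time. Leaving out weeks 12 and 15, and giving unadjusted counts for the alternatives, were not planned and were chosen after seeing the data. The same holds for the list medians with weeks left out.

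The slope with week had 0 genes, and 186 with normexp background correction, all 186 at an unadjusted p under 0.05 without it. The share of genes at least 2-fold apart, 38.7%, 18.1%, 30.7%, 47.8% and 49.2% in order of week, was 59.6% at week 3 and 38.6% at week 6 at 1.5-fold, 11.7%, 6.61% and 28.5% at weeks 6, 9 and 15 with normexp, and 13.6% at week 9 when both arrays of a pair had to be well above background. The count of 3 genes 2-fold apart in 5 of 5 pairs was 34 at 1.5-fold, 1 with both arrays well above background, 9 with quantile normalization, of which 8 were lower on HF20, and 1 with normexp. Causes were not tested.

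Of 636 list medians recomputed, 568 kept their sign. The sign changed for 22 lists without weeks 12 and 15 and for 10 without week 15. The median spot stood 3.60 to 10.8 times over its local background, which limits what dim genes can show, and 1 array per dose and week limits every weekly value.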

Other observations

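The closest pairs of arrays across the doses were not all of the same week. By rank correlation over genes HF5 at week 9 and HF20 at week 12 stood at 0.981, HF5 at week 12 and HF20 at week 3 at 0.978, and both week 6 arrays at 0.974. The deviations of HF20 at week 12 from its dose mean correlated at 0.735 with those of HF5 at week 9 across genes, which are not independent replicates.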
